A study of Mus musculus with 14 samples.

Results

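The CC chemokine genes Ccl2, Ccl3, Ccl4, Ccl5, Ccl6, Ccl7, Ccl8, Ccl9, Ccl12 and Ccl22 were followed in mouse bone marrow-derived macrophages in which Wdr82 had been knocked down. They were chosen by name as CC chemokines of macrophages, matched by gene identifier to the deposited counts, and are 10 of 21761 genes counted. All 4 libraries came from primary macrophages of FVB/Hsd mice at day 7 of differentiation, infected with a retrovirus that carried a short hairpin RNA, selected with puromycin at 3.5 µg/ml and left without lipopolysaccharide. The Wdr82 knockdown libraries were sh1137 and sh830, named for their hairpins, with 1 library for each. The controls were scrambled 1 and scrambled 2, which carried a scrambled hairpin under the same infection and selection. Ribosomal RNA-depleted total RNA was sequenced, and reads were counted over the exons and, apart from these, over the introns of each gene.

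CC chemokines are small secreted proteins that draw leukocytes through G protein-coupled receptors of the Ccr family. Ccl2, Ccl7, Ccl8 and Ccl12 are the monocyte chemoattractant group, and Ccl3, Ccl4, Ccl6 and Ccl9 are macrophage inflammatory proteins or their relatives. Ccl5 attracts T cells and monocytes, and Ccl22 attracts T cells that carry Ccr4. Macrophages make several of these ligands at rest and make more of many of them after microbial signals. The hairpins target Wdr82, a WD-repeat protein found in SET1 complexes, which methylate histone H3 at lysine 4, and in a protein phosphatase 1 complex linked to the end of transcription.

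Gene exons held 34787556 counts in sh1137 and 43372731 in sh830, against 40074419 in scrambled 1 and 42635790 in scrambled 2. Introns took 44.2% and 15.2% of exon plus intron counts in sh1137 and sh830, against 40.4% and 14.6% in scrambled 1 and 2. The libraries thus stood apart by intron share in pairs that cross the groups, sh1137 with scrambled 1 and sh830 with scrambled 2, and each fit held a term for this split beside the group. This split was found after the data were seen, and the group term alone is given as an alternative. Wdr82 itself had 25.1 and 40.7 counts per 1000000 library counts (CPM) in sh1137 and sh830, against 100 and 144 CPM in scrambled 1 and 2. Its log2 fold change of -1.91 ± 0.094 (SE) had an adjusted p of 0.0022, and 0.44 with the group term alone. The 10 macrophage markers summed to 9049 and 15630 CPM in the knockdown libraries and to 10450 and 12700 CPM in the scrambled ones, and 2 of the 9 tested fell. Markers of other cells were low but not equal between groups. The 8 fibroblast and stromal markers, with 2 of 6 tested members past the test upward, summed to 44.2 and 147 CPM in sh1137 and sh830, against 9.66 and 42.8 CPM in scrambled 1 and 2. The 7 dendritic cell markers, with 2 of 7 past it upward, summed to 23.6 and 16.2 CPM, against 11.4 and 8.83 CPM. The 5 endothelial markers, with 2 of 4 past it upward, summed to 68.1 and 41.7 CPM, against 44.1 and 36.5 CPM. Of T cell markers 1 of 5 tested passed upward, at sums of 21.2 and 16.5 CPM against 19.0 and 12.4 CPM. Of B cell markers 1 of 3 tested passed downward, at sums of 1.82 and 3.25 CPM against 3.38 and 5.49 CPM. Neutrophil markers, with 0 of 8 tested past it in either direction, summed to 15.9 and 4.34 CPM against 18.0 and 8.78 CPM. NK cell markers summed to less than 1 CPM in each library, with Gzma, Gzmb and Prf1 at 0 in all. Over all genes tested, 6.06% passed upward and 7.79% downward. The part of these markers in the results that follow was not tested. In such bulk RNA, fewer cells of a type and less RNA per cell cannot be told apart.

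Of the 10 genes, 9 had counts, and their exon levels spanned a wide range. Levels are in RPKM, exon CPM divided by the exon length in kb, which allows genes to be compared. Ccl2 had the highest mean in both groups, and the means of Ccl8 and Ccl22 were below 1 RPKM in both. Together the genes took 0.151% and 0.216% of gene exon counts in sh1137 and sh830, against 0.141% and 0.193% in scrambled 1 and 2, so that the split of libraries moved the sum more than the knockdown did. Of 8 genes that passed the filter on low counts, 1 rose (Ccl6) and 2 fell (Ccl2 and Ccl7) with Wdr82 knockdown at an adjusted p under 0.05, and 5 did not pass. Over all 13884 genes tested, 6.06% rose and 7.79% fell. The median log2 fold change was 0.38 over the 8 tested genes and -0.01 over all genes tested. None of the 8 passed with the group term alone, where 2 of them, Ccl2 and Ccl7, had an unadjusted p under 0.05, so each call rests on the term for the split.

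**Figure D1:**
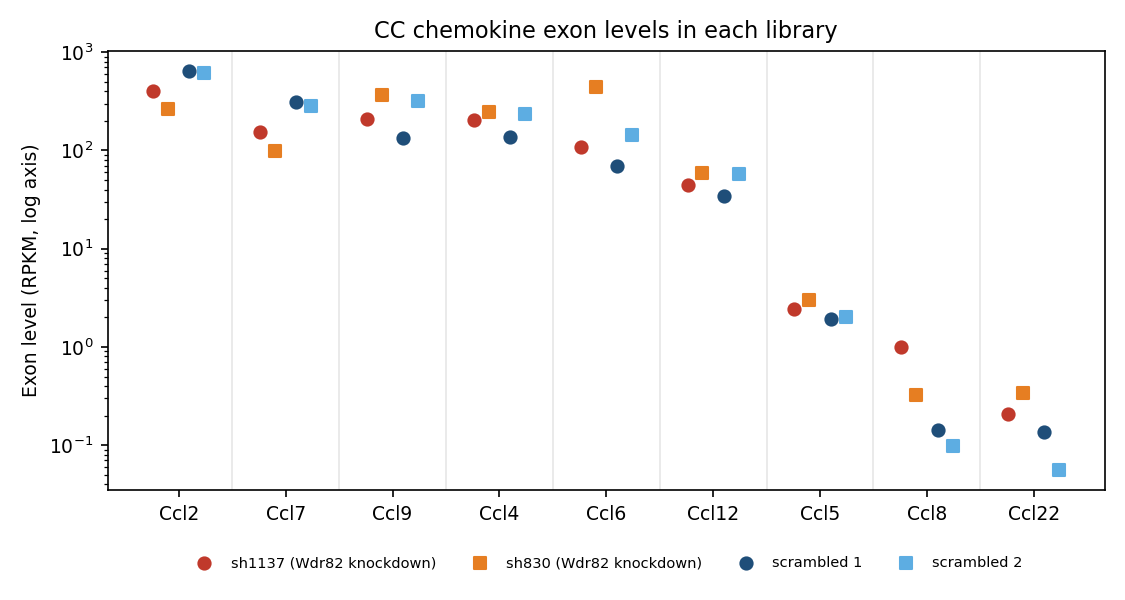
Exon level of each CC chemokine in each library, in RPKM on a log axis, ordered by the scrambled mean, with knockdown libraries at the left and scrambled libraries at the right of each gene. Both knockdown points of Ccl2 and Ccl7 lie below both scrambled points, and those of Ccl5, Ccl8 and Ccl22 lie above them. Ccl3, with no count in any library, is not drawn.

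Ccl2, the main monocyte attractant and a ligand of Ccr2, fell with knockdown. The gene (identifier 20296) lies on mm9 chromosome 11, 81849079 to 81850954, plus strand, with 3 exons. Its exon level was 407 RPKM in sh1137 and 263 RPKM in sh830, against 648 RPKM in scrambled 1 and 608 RPKM in scrambled 2. Both knockdown libraries were lower than both scrambled ones, and sh830 was the lowest. The means were 335 ± 102 RPKM in knockdown and 628 ± 28.2 RPKM in scrambled libraries (SD, n = 2 each). The log2 fold change was -0.94 ± 0.15 (SE, adjusted p = 0.020), and the adjusted p was 0.64 with the group term alone. In that fit the exon value was -0.61 without sh830 and -1.26 without sh1137.

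Ccl7, a second ligand of Ccr2, begins 8.26 kb beyond the end of Ccl2 on the same strand (identifier 20306, 81859214 to 81861025, 3 exons) and fell more. It had 153 RPKM in sh1137 and 99.7 RPKM in sh830, against 312 RPKM in scrambled 1 and 287 RPKM in scrambled 2. The groups did not overlap, and the order of the 4 libraries was that of Ccl2. The log2 fold change was -1.27 ± 0.14 (SE, adjusted p = 0.0098), and the adjusted p was 0.48 with the group term alone. Within the pairs of libraries alike in intron share, the log2 difference of Ccl7 was -1.03 for sh1137 against scrambled 1 and -1.52 for sh830 against scrambled 2. For Ccl2 these differences were -0.67 and -1.21, so that sh830 was the lower hairpin for both genes. Ccl2 and Ccl7 were also the only chemokines here whose knockdown libraries both lay below both scrambled libraries, which 15.7% of all tested genes did.

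Ccl12 and Ccl8 complete the monocyte chemoattractant group at this locus, and neither passed a test. Ccl12, a Ccr2 ligand of the mouse (identifier 20293, 81915347 to 81916901, plus strand, 3 exons), had 44.6 and 58.5 RPKM in sh1137 and sh830, against 34.3 and 57.9 RPKM in scrambled 1 and 2. The groups overlapped, and the libraries lay by intron share rather than by group. Its log2 fold change was 0.19 ± 0.13 (SE, adjusted p = 0.34). Ccl8 (identifier 20307, 81928687 to 81930301, plus strand, 3 exons), a monocyte chemoattractant that in the mouse acts through Ccr8, was near the limit of detection and did not pass the filter. It had 19 and 7 exon counts in sh1137 and sh830, against 3 and 2 in scrambled 1 and 2. Both knockdown libraries were above both scrambled ones. The pooled ratio, scaled by library counts, was 5.27 with an exact 95% interval of 1.99 to 17.6, which covers counting error only.

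The promoters of Ccl8 and Ccl12 are shown because they aligned over 275 bases, while the levels of the genes lay far apart. The genes had mean levels of 0.658 and 51.6 RPKM in the knockdown libraries and 0.121 and 46.1 RPKM in the scrambled ones. The promoters are from RefSeq, GRCm38.p6, from 250 bases before to 50 bases after the annotated start. Of the 10 genes, 6 matched a promoter in that table. The sequences are on the plus strand, chr11:82114935-82115234 for Ccl8 and chr11:82101595-82101894 for Ccl12, and capitals mark the run of 11 bases that both hold. This run lies before the annotated start in Ccl8 and after it in Ccl12.
Ccl8: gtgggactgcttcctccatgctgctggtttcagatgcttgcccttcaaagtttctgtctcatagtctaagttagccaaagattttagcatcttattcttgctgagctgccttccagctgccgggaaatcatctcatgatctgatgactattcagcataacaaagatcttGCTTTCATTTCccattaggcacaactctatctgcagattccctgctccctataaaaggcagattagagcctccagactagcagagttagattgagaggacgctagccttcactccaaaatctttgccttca
Ccl12: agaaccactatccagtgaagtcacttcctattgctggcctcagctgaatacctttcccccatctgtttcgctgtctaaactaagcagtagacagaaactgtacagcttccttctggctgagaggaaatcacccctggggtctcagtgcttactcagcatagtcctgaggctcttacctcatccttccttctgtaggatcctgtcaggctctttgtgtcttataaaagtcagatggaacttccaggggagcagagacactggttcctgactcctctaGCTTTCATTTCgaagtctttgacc
In a global alignment the pair had 275 aligned bases, of which 65.5% were the same. The letters TATAAA stand 32 bases before the start of Ccl8 and 31 bases before that of Ccl12. On either strand, 13.6% of the 32544 promoters in the table hold these letters, and among the 6 matched here Ccl9 holds them too.

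The other chromosome 11 cluster, whose first gene in coordinate order is Ccl5, begins 1409 kb beyond Ccl8 and holds Ccl5, Ccl9, Ccl6, Ccl3 and Ccl4 within 138.9 kb. Here Ccl6 rose. Ccl6, a macrophage chemokine of rodents that binds Ccr1 (identifier 20305, 83401388 to 83406589, minus strand, 4 exons), had 109 RPKM in sh1137 and 442 RPKM in sh830, against 69.8 RPKM in scrambled 1 and 144 RPKM in scrambled 2. The level in sh830 was the highest, and sh1137 lay below scrambled 2, so the groups overlapped. The log2 fold change was 1.13 ± 0.23 (SE, adjusted p = 0.034), and the adjusted p was 0.87 with the group term alone. Against the library alike in intron share, the log2 difference was 0.64 for sh1137 and 1.62 for sh830. In fits with the group term alone the value was 0.03 without sh830, 2.04 without sh1137 and 2.00 without scrambled 2, so that knockdown and control libraries both moved it. Of the exon bases of Ccl6, 14.1% are shared with non-gene regions of the deposited annotation and could not be counted for the gene.

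Ccl9, the closest relative of Ccl6 and another Ccr1 ligand (identifier 20308, 83386419 to 83392138, minus strand, 4 exons), had 210 and 365 RPKM in sh1137 and sh830, against 134 and 317 RPKM in scrambled 1 and 2. The libraries lay by intron share, and the groups overlapped. Its log2 fold change was 0.43 ± 0.14 (SE) with an adjusted p of 0.093, which DESeq2 with the same terms put at 0.035. Ccl4, a macrophage inflammatory protein (identifier 20303, 83476086 to 83478185, plus strand, 3 exons), had 203 and 248 RPKM in sh1137 and sh830, against 137 and 233 RPKM in scrambled 1 and 2. The groups overlapped, with scrambled 1 the lowest. Its log2 fold change was 0.33 ± 0.13 (SE, adjusted p = 0.15), and 28.2% of its exon bases are shared with a region.

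The promoters of Ccl6 and Ccl9 are shown because their annotated starts lie inside non-gene regions whose RNA rose, as described further on. Both are from RefSeq, GRCm38.p6, read on the minus strand from chr11:83593038-83593337 for Ccl6 and chr11:83578587-83578886 for Ccl9. Capitals mark the runs of at least 10 bases that occur in both.
Ccl6: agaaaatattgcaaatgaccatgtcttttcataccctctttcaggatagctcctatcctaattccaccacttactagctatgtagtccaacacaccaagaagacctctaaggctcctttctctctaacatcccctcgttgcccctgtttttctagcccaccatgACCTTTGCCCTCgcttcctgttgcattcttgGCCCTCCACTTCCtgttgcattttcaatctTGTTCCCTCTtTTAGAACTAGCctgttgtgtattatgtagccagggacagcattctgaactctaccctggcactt
Ccl9: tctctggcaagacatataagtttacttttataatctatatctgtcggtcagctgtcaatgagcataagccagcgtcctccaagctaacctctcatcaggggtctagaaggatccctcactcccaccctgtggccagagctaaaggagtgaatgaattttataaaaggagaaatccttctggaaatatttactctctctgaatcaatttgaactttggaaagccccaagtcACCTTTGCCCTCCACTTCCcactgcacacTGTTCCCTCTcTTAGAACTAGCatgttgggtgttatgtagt
The pair had 228 aligned bases, of which 64.0% were the same, and the longest of the shared runs was 13 bases. No other pair of the 6 promoters, apart from Ccl8 with Ccl12, aligned over more than 47 bases. Ccl9 holds the AP-1 letters TGANTCA 53 bases before its start and a kappaB motif, searched on both strands, 35 bases before it. Of all promoters in the table, 7.79% hold the AP-1 letters and 4.53% the kappaB motif.

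Ccl3, Ccl5 and Ccl22 could be measured little or not at all. Ccl3, a ligand of Ccr1 (identifier 20302, 83461345 to 83462880, minus strand, annotated with 1 exon), had 0 exon counts in every library. Its exon lies wholly inside a non-gene region, and all 20 gene exon sets that lie wholly inside such regions had 0 counts in all 4 libraries, against 19.5% of all genes. The 0 therefore says nothing about the level of Ccl3, which was not measured here.

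Ccl5, a ligand of Ccr1 and Ccr3 (identifier 20304, 83339281 to 83344020, minus strand, 3 exons), had 48 and 68 counts in sh1137 and sh830, against 42 and 43 in scrambled 1 and 2. These are 2.41 and 3.04 RPKM against 1.93 and 2.03 RPKM. Both knockdown libraries were above both scrambled ones by a small margin. The log2 fold change was 0.45 ± 0.37 (SE, adjusted p = 0.43). Ccl22, a ligand of Ccr4 made by macrophages and dendritic cells (identifier 20299, mm9 chromosome 8, 97269584 to 97275288, plus strand, 3 exons), had 14 and 26 counts in sh1137 and sh830, against 10 and 4 in scrambled 1 and 2. The groups did not overlap, but the log2 fold change of 1.51 ± 0.70 (SE) did not pass (adjusted p = 0.19). Its pooled ratio was 2.90 (exact 95% interval 1.54 to 5.76, counting error only). Together with Ccl8, these made 3 chemokines whose knockdown libraries both lay above both scrambled libraries, a pattern that 15.7% of all tested genes showed.

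The order of the mean exon levels differed between groups. In the knockdown libraries it ran from Ccl2 through Ccl9, Ccl6, Ccl4, Ccl7, Ccl12, Ccl5 and Ccl8 to Ccl22. In the scrambled libraries it ran from Ccl2 through Ccl7, Ccl9, Ccl4, Ccl6, Ccl12, Ccl5 and Ccl8 to Ccl22. Ccl7 was at rank 5 in the knockdown libraries, against rank 2 in the scrambled ones. Neighbours near the top overlapped between libraries. In the knockdown group these were Ccl2 with Ccl9, Ccl9 with Ccl6 and Ccl6 with Ccl4, while Ccl4 lay apart from Ccl7. In the scrambled group they were Ccl7 with Ccl9, Ccl9 with Ccl4 and Ccl4 with Ccl6, while Ccl2 lay apart from Ccl7. Ccl12 and Ccl5 lay apart from their neighbours on both sides in both groups, whereas Ccl8 and Ccl22 overlapped. Per kb of exon not shared with a region, an alternative chosen after seeing the data, Ccl6 and Ccl4 came before Ccl9 in the knockdown libraries and Ccl4 before Ccl9 in the scrambled ones.

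Intron counts, which mostly come from RNA not yet spliced, moved as the exon counts did for the genes that fell. The intron level of Ccl2 was 52.1 and 24.4 RPKM in sh1137 and sh830, against 85.8 and 65.1 RPKM in scrambled 1 and 2. That of Ccl7 was 24.4 and 21.5 RPKM in sh1137 and sh830, against 46.1 and 63.3 RPKM in scrambled 1 and 2. For both genes each knockdown library was below each scrambled one. The intron log2 fold change was -1.03 ± 0.17 (SE, adjusted p = 0.018) for Ccl2 and -1.21 ± 0.17 (SE, adjusted p = 0.012) for Ccl7. For Ccl2 introns it was -0.54 without sh830 and -1.62 without sh1137 with the group term alone.

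Of 6 chemokines with intron counts past the filter, these 2 fell and 0 rose, where 3.93% of all 12405 genes with tested introns fell and 5.97% rose. In edgeR, 2 of the 6, Ccl4 and Ccl9, had an unadjusted p under 0.05 upward, and DESeq2 with the same terms also found 0. Ccl4 introns had 21.4 and 27.6 RPKM in sh1137 and sh830, against 14.4 and 21.2 RPKM in scrambled 1 and 2. Its log2 fold change of 0.49 ± 0.12 (SE) missed the threshold with an adjusted p of 0.057. It passed with DESeq2 size factors (adjusted p = 0.034) and without the filter on low counts (adjusted p = 0.023). With the group term alone 0 of the 6 passed, and 1, Ccl7, had an unadjusted p under 0.05 in edgeR. The introns of Ccl6 had 0 counts in every library, as did all 272 sets of introns that lie wholly inside introns of a gene on the opposite strand. The unspliced RNA of Ccl6, the chemokine that rose, was thus not measured.

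**Figure D2:**
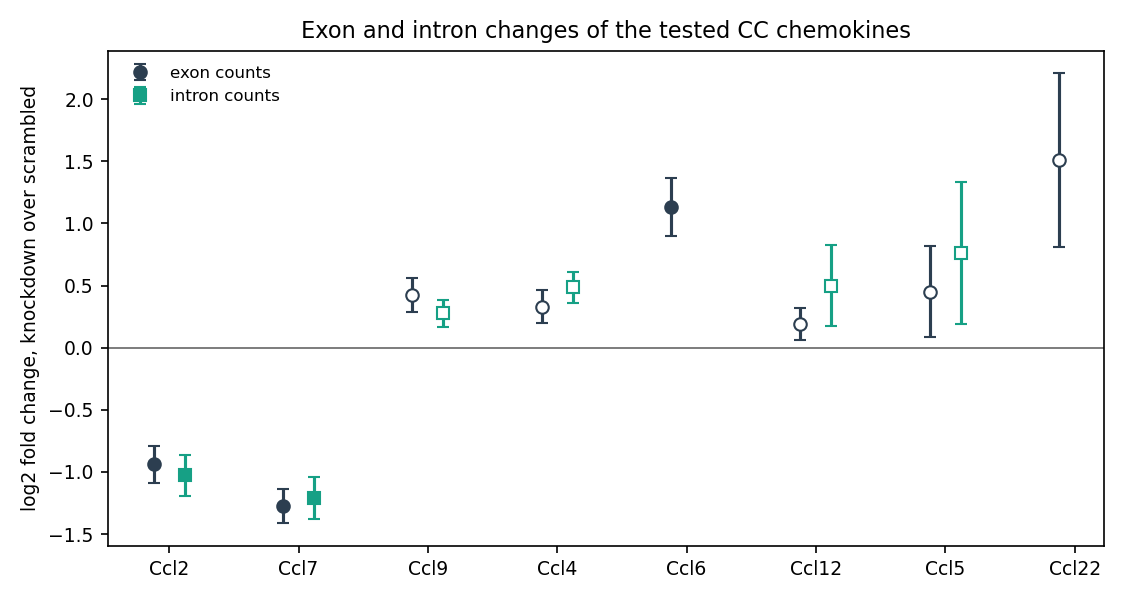
Log2 fold change of knockdown over scrambled libraries for exon counts (circles) and intron counts (squares) of the tested CC chemokines, with bars of 1 SE from edgeR. Filled symbols passed an adjusted p of 0.05. Ccl2 and Ccl7 lie below 0 in both kinds of counts, from -0.94 to -1.27, and Ccl6 lies above 0 at 1.13 in exons with no intron value.

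The difference between intron and exon change was tested directly as an interaction. None of the 6 chemokines passed in edgeR, and 0 had an unadjusted p under 0.05, while 2.19% and 1.46% of 11772 genes passed upward and downward. The intron minus exon log2 change was -0.11 ± 0.12 (SE) for Ccl2 and 0.05 ± 0.13 (SE) for Ccl7. It was 0.14 ± 0.13 for Ccl4, -0.15 ± 0.12 for Ccl9 and 0.29 ± 0.25 for Ccl12 (SE). The least certain was Ccl5, at 0.30 ± 0.69 (SE). The interaction fit put no limit on its prior degrees of freedom, so its p-values take the spread as common to all genes. Values that miss the threshold do not show that introns and exons changed alike. The intron share of a gene's counts followed the split of libraries: for Ccl2 it was 9.84% and 2.59% in sh1137 and sh830, against 9.25% and 2.83% in scrambled 1 and 2 (95% Wilson intervals 9.36 to 10.4, 2.28 to 2.94, 8.88 to 9.62 and 2.61 to 3.07%).

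Around the 2 chromosome 11 clusters the authors annotated non-gene regions, named for the start (TSS) or end (TES) of a gene. All 9 within 100 kb of a chemokine were tested, 7 rose and 0 fell. In edgeR 0 had an unadjusted p under 0.05 downward, and DESeq2 found 0 that fell. Of all 1070 regions tested, 54.6% rose and 0% fell. The authors had chosen the regions from a comparison of hairpin with vector libraries, so this direction is not independent evidence. Region levels are given as counts, and the regions have no strand.

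Next to the genes that fell lies the region named for the start of Ccl2, 81789000 to 81841999, which ends 7.08 kb before the gene. It had 9019 counts in sh1137 and 789 in sh830, against 549 in scrambled 1 and 240 in scrambled 2. Most of the signal was in sh1137, and both knockdown libraries were above both scrambled ones. The log2 fold change was 3.01 ± 0.61 (SE, adjusted p = 0.032). In fits with the group term alone it was 0.94 without sh1137, 4.65 without sh830 and 4.42 without scrambled 1, and its adjusted p was 0.055 with DESeq2 size factors. The region named for the end of Ccl11, beyond Ccl7, showed the same order of libraries, with 293 and 30 counts in sh1137 and sh830, against 20 and 8 in scrambled 1 and 2 (log2 fold change 3.20 ± 0.60, SE, adjusted p = 0.028). Without sh1137 its log2 fold change was 1.03. So RNA rose in regions on both sides of Ccl2 and Ccl7 while both genes fell, and the regions were highest in sh1137 while the genes were lowest in sh830. The sum over all regions of the annotation had the same order, with 2.48% and 0.910% of exon plus region counts in sh1137 and sh830, against 0.668% and 0.397% in scrambled 1 and 2. The region named for the end of Ccl2 did not pass, with 88 and 42 counts in sh1137 and sh830, against 11 and 40 in scrambled 1 and 2 (log2 fold change 1.43 ± 0.81, SE, adjusted p = 0.27).

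In the Ccl5 to Ccl4 cluster the widest region, named for the end of E230016K23Rik, runs from 83406500 to 83475999 and so holds the start of Ccl6 and the whole of Ccl3. It had 9866 and 4405 counts in sh1137 and sh830, against 1849 and 1021 in scrambled 1 and 2. The groups did not overlap, and the log2 fold change was 2.29 ± 0.14 (SE, adjusted p = 0.0040). It was 1.55 without sh1137 with the group term alone (adjusted p = 0.032). The exon bases of Ccl3 lie inside it, and shared bases were credited to no feature, so its counts are not a measure of Ccl3. The region named for the start of E230016K23Rik, 83392000 to 83401499, lies between Ccl9 and Ccl6 and holds the start of Ccl9. It had 577 and 500 counts in sh1137 and sh830, against 30 and 66 in scrambled 1 and 2 (log2 fold change 3.55 ± 0.41, SE, adjusted p = 0.011). The span of an annotated gene without a matched symbol (identifier 414102, 83395563 to 83437195, plus strand) overlaps Ccl6 and both of these regions. This gene had 0 exon counts in every library, and its part in the region counts was not tested.

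Farther on, the region named for the start of Gm11428 had 262 and 165 counts in sh1137 and sh830, against 4 and 4 in scrambled 1 and 2 (log2 fold change 5.71 ± 0.43, SE, adjusted p = 0.0053). The one named for its end had a log2 fold change of 2.23 ± 0.50 (SE, adjusted p = 0.041). Between them lies the gene Wfdc17 (83517558 to 83519771), described below. The first region ends before it, at 83517499, and the second begins inside it, at 83519500. No annotated gene within 100 kb of a chemokine matched the symbol Gm11428, so these regions may be named for the start and end of Wfdc17 itself. The seventh region that rose, at the end of Ccl9, is named although it falls outside the rule of 6 and was chosen after its values were seen. It had 356 and 191 counts in sh1137 and sh830, against 168 and 105 in scrambled 1 and 2 (log2 fold change 1.00 ± 0.24, SE, adjusted p = 0.047). The region at the end of Ccl4, with a log2 fold change of 0.57 ± 0.33 (SE, adjusted p = 0.28), did not pass. The adjusted p of the region at the end of Gm11428 was 0.060 with DESeq2 size factors, and that of the region at the end of Ccl9 was 0.062.

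**Figure D3:**
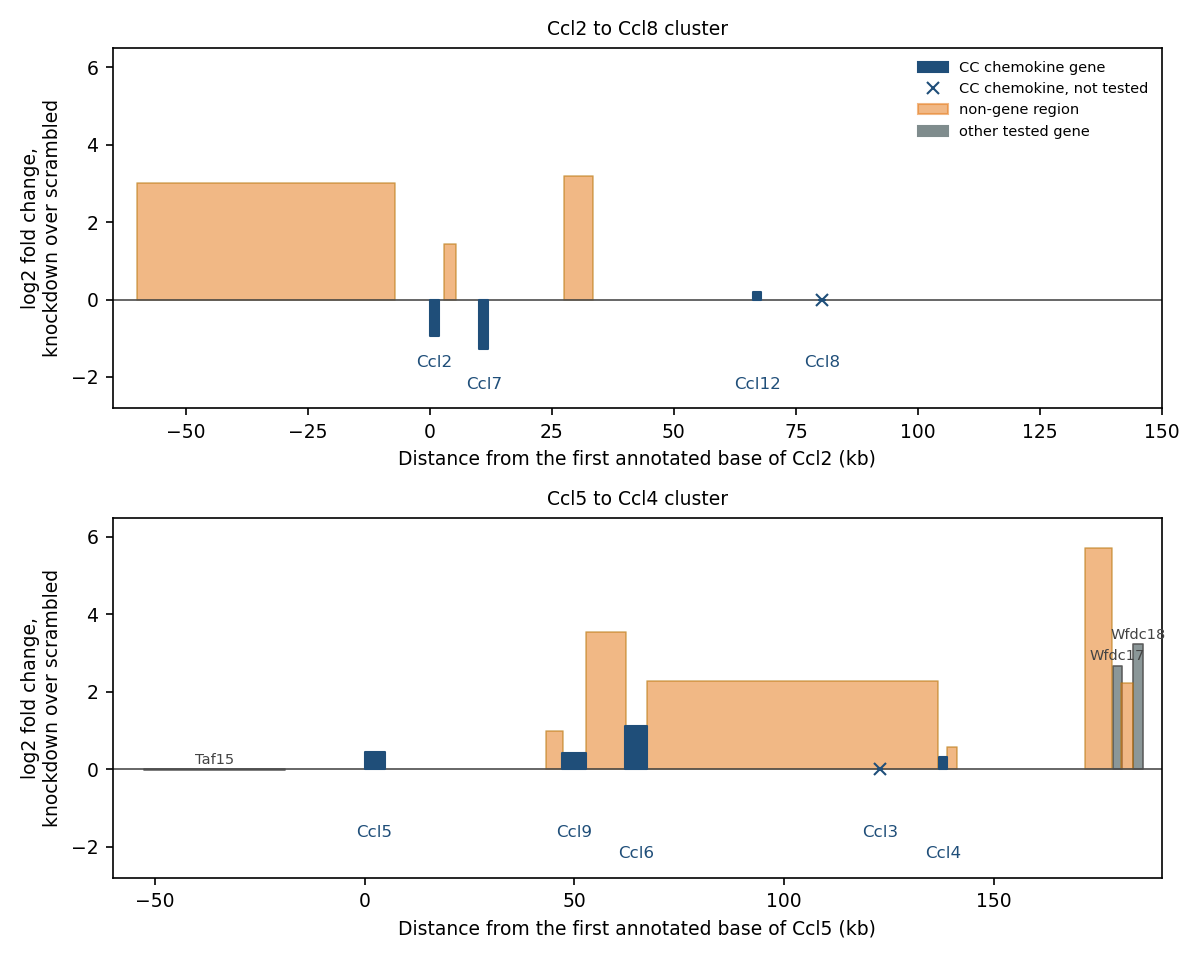
Log2 fold change of exon counts, knockdown over scrambled, along both chromosome 11 clusters, drawn to scale by distance in kb from the first annotated base of Ccl2 (top) and Ccl5 (bottom). The width of a bar is the span of a chemokine gene, another tested gene or a non-gene region, and crosses mark chemokines that were not tested. Ccl2 and Ccl7 point down between regions that point up, at 3.01 and 3.20.

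**Figure D4:**
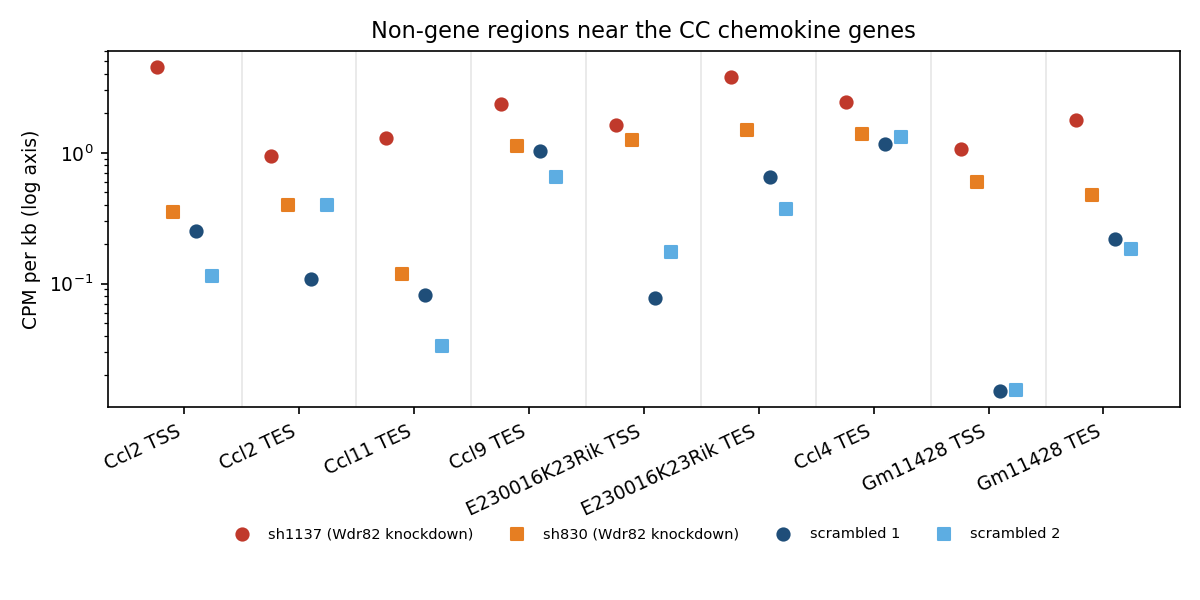
Level of each non-gene region near the CC chemokines in each library, in CPM per kb of region on a log axis, with knockdown libraries at the left and scrambled libraries at the right. In sh1137 the region named for the start of Ccl2 was at 4.54 CPM per kb, against 0.353 in sh830, 0.253 in scrambled 1 and 0.114 in scrambled 2.

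Of 20 annotated genes within 100 kb of a chemokine, 12 were tested, 3 rose and 1 fell, where 6.06% of all tested genes rose and 7.79% fell. Of the 12, 0 passed with the group term alone, and 3 had an unadjusted p under 0.05 in edgeR, all upward. Wfdc17 and Wfdc18, genes for secreted whey acidic protein domain proteins, lie 39.4 and 44.3 kb beyond Ccl4. Wfdc17 had 52.7 and 134 CPM in sh1137 and sh830, against 6.24 and 26.6 CPM in scrambled 1 and 2 (log2 fold change 2.68 ± 0.19, SE, adjusted p = 0.0048). With the group term alone it was 1.68 without sh830, where the adjusted p was 0.13, and 1.80 without scrambled 1, where it was 0.053. Wfdc18 had 52 and 79 counts in sh1137 and sh830, against 10 and 4 in scrambled 1 and 2 (log2 fold change 3.23 ± 0.58, SE, adjusted p = 0.025). Beside Ccl22, Cx3cl1 rose by 1.25 ± 0.28 on the log2 scale (adjusted p = 0.040), and Coq9, a gene of coenzyme Q synthesis, fell by 0.73 ± 0.12 (adjusted p = 0.021). Coq9 was, with the group term alone, at -0.31 without sh1137, -0.22 without scrambled 2 and -1.28 without sh830.

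Among the chemokine receptors, 14 of 18 were tested, 4 rose and 3 fell, with a median log2 fold change of 0.48, against 6.06%, 7.79% and -0.01 over all tested genes. Of the 14, 0 passed with the group term alone, and 3 upward and 3 downward had an unadjusted p under 0.05 in edgeR. Ccr2, the receptor of Ccl2, Ccl7 and Ccl12, had 18.0 and 21.9 CPM in sh1137 and sh830, against 51.0 and 40.3 CPM in scrambled 1 and 2. Both knockdown libraries lay below both scrambled ones. Ccr2 fell by 1.19 ± 0.17 on the log2 scale (SE, adjusted p = 0.016, and 0.47 with the group term alone).

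Ccr3, an eosinophil receptor that also binds Ccl5 and Ccl7, had 17.8 and 11.2 CPM in sh1137 and sh830, against 0.513 and 0.702 CPM in scrambled 1 and 2. It rose by 4.53 ± 0.34 log2 units (SE, adjusted p = 0.0053, and 0.41 with the group term alone). With any library left out the log2 fold change was 4.18 to 4.87. The 8 markers of mast cells, basophils and eosinophils summed to 1.20 and 3.93 CPM in sh1137 and sh830, against 0.562 and 0.326 CPM in scrambled 1 and 2, with Mcpt4, Tpsb2 and Fcer1a at 0 in all libraries. The part of these cells in the rise of Ccr3 was not tested. Ccr1l1, a receptor-like gene related to Ccr1, had 124 and 100 counts in sh1137 and sh830, against 11 and 15 in scrambled 1 and 2 (log2 fold change 3.11 ± 0.44, SE, adjusted p = 0.016). Ccr1, the receptor of Ccl6 and Ccl9, did not pass, with 27.0 and 45.7 CPM in sh1137 and sh830, against 41.2 and 45.2 CPM in scrambled 1 and 2 (log2 fold change -0.29 ± 0.16, SE, adjusted p = 0.27). The decoy receptor Ackr2 had 20 and 4 counts in sh1137 and sh830, against 5 and 14 in scrambled 1 and 2, and did not pass (log2 fold change 0.24 ± 1.03, SE, adjusted p = 0.89). Ccr4, the receptor of Ccl22, had 6 and 5 counts in sh1137 and sh830, against 5 and 4 in scrambled 1 and 2, and was not tested. Others that passed, chosen for naming after their values were seen, were Xcr1 and Ccrl2, which rose by 1.49 ± 0.29 and 0.82 ± 0.14 log2 units, and the fractalkine receptor Cx3cr1, which fell (adjusted p = 0.028). Ccrl2 was at 0.15 without sh830, 0.31 without scrambled 1, 1.24 without sh1137 and 1.56 without scrambled 2 with the group term alone. Cx3cr1 had 61.2 and 129 CPM in sh1137 and sh830, against 262 and 240 CPM in scrambled 1 and 2, and its log2 fold change was -0.97 without sh1137 with the group term alone.

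**Figure D5:**
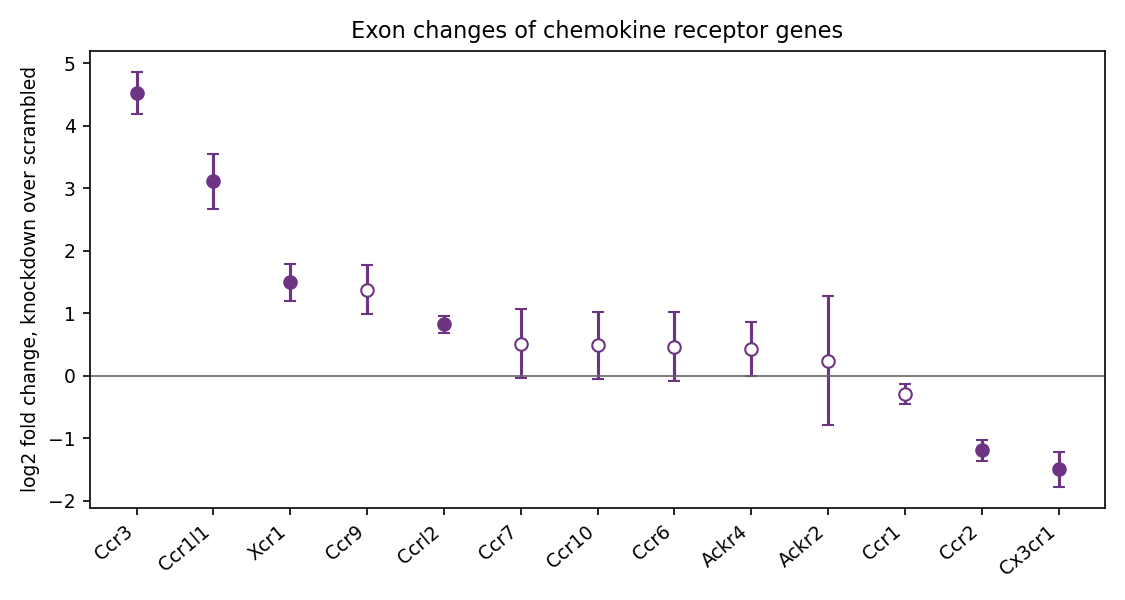
Log2 fold change of exon counts, knockdown over scrambled libraries, of the tested chemokine receptor genes reported here, with bars of 1 SE from edgeR. Filled points passed an adjusted p of 0.05. Ccr3 is at 4.53, Ccr2 at -1.19, and Cx3cr1 is the lowest point.

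Of 14 other CC, CX3C and XC ligands in the files, 4 were tested, 1 rose (Cx3cl1, the membrane-bound ligand of Cx3cr1) and 0 fell. Over all tested genes 6.06% rose and 7.79% fell. Downward, 0 of the 4 ligands had an unadjusted p under 0.05 in edgeR, and DESeq2 found 0. With the group term alone 0 of the 4 passed, and Cx3cl1 had an adjusted p of 0.67 in edgeR. Cx3cl1 had 148 and 184 counts in sh1137 and sh830, against 63 and 78 in scrambled 1 and 2, and its adjusted p was 0.068 in DESeq2 and 0.052 in edgeR with DESeq2 size factors. Ccl11, which lies between Ccl7 and Ccl12 and was named for its place, was not tested and had 49 and 1 counts in sh1137 and sh830, against 8 and 2 in scrambled 1 and 2.

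Genes that lipopolysaccharide and NF-kB induce in macrophages, a class to which Ccl2, Ccl3, Ccl4 and Ccl5 also belong, did not all move one way. Of 18 such genes 15 were tested, 4 rose and 1 fell, with a median of 0.59, against 6.06%, 7.79% and -0.01 over all tested genes. In this edgeR fit with the split term, 7 upward and 2 downward had an unadjusted p under 0.05. None of the 15 passed with the group term alone, and 2 upward and 1 downward had an unadjusted p under 0.05 in edgeR. With DESeq2 size factors 3 rose and 0 fell. Ier3, an early response gene, rose by 1.28 ± 0.13 log2 units (SE, adjusted p = 0.0090), and the neutrophil attractant Cxcl1 rose by 1.57 ± 0.24 (SE, adjusted p = 0.019). Cxcl10, an interferon-induced chemokine, had 2.30 and 2.70 CPM in sh1137 and sh830, against 4.40 and 7.63 CPM in scrambled 1 and 2 (log2 fold change -1.22 ± 0.27, SE, adjusted p = 0.039). It was at -0.79 without scrambled 2 with the group term alone, and its adjusted p was 0.054 with DESeq2 size factors. Nfkbia and Ptgs2, named after their values were seen, rose by 0.47 ± 0.10 and 2.18 ± 0.46 (SE). Without sh830, Ptgs2 was at -0.02 and Nfkbia at 0.089 with the group term alone. Nfkbia was at 0.27 without scrambled 1, 0.81 without sh1137 and 0.77 without scrambled 2. Ptgs2 was at 3.60 without sh1137 and 3.83 without scrambled 2. Tnf, likewise named later, had 91.7 and 118 CPM in sh1137 and sh830, against 92.2 and 112 CPM in scrambled 1 and 2, with a log2 fold change of 0.03 ± 0.083 (SE, adjusted p = 0.80).

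Of 28 transcription factors that act on chemokine genes, all tested, 5 fell and 0 rose, with a median of -0.08, where 7.79% of all tested genes fell and 6.06% rose. With the group term alone 0 fell, and 1 downward and 0 upward had an unadjusted p under 0.05 in edgeR. With DESeq2 size factors 3 fell. In the edgeR fit with the split term, 6 downward and 1 upward had an unadjusted p under 0.05. DESeq2 with the same terms found 0 that rose. Irf7, a driver of type I interferon genes, had 32.7 and 23.3 CPM in sh1137 and sh830, against 65.4 and 67.4 CPM in scrambled 1 and 2 (log2 fold change -1.26 ± 0.15, SE, adjusted p = 0.011). Stat2, which carries interferon signals, fell by 0.50 ± 0.088 (SE, adjusted p = 0.024), but was at -0.06 without sh830 and -0.01 without scrambled 1 with the group term alone. Fos, Atf3 and Spi1, named after their values were seen, fell by 0.92 ± 0.20, 0.35 ± 0.085 and 0.45 ± 0.095 (SE). Spi1 was, with the group term alone, at -0.15 without sh1137, -0.17 without scrambled 2 and -0.79 without sh830. Fos was at -0.13 without sh830, 0.03 without scrambled 1 and -2.04 without sh1137. Atf3 was at 0.18 without sh1137, 0.52 without scrambled 2, -1.21 without sh830 and -0.89 without scrambled 1. Also named later, the NF-kB subunit gene Rela had a log2 fold change of 0.21 ± 0.12 (SE, adjusted p = 0.28) and Nfkb1 one of -0.11 ± 0.10 (SE, adjusted p = 0.50). Of 10 factors that act on the decay of inflammatory transcripts, 1 fell and 0 rose, with a median of -0.16. None of the 10 fell with the group term alone in edgeR, and 0 had an unadjusted p under 0.05 in either direction. In the edgeR fit with the split term, 3 downward and 1 upward had an unadjusted p under 0.05. DESeq2 with the same terms found 0 that rose. The one that fell was Zfp36l1, a binder of AU-rich elements, by 0.50 ± 0.091 (SE, adjusted p = 0.026). Zfp36, its relative that acts on Tnf transcripts, was named after its values were seen and had a log2 fold change of -0.43 ± 0.12 (SE, adjusted p = 0.070).

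The pattern of Ccl2 over the 4 libraries was compared with that of 8976 genes with a mean of at least 10 CPM, by the root mean square difference of log2 CPM centred per gene. Among the 5 most alike were Fasn, the fatty acid synthase, at 0.019, and Speg, H2-T24 and Fgd2, from 0.070 to 0.108. Ccl7 was at rank 27 with 0.168, and the next of the chemokines was Ccl12 at rank 7453 with 0.737. With 4 libraries this likeness is a description of the same counts.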

How the data were processed

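For 4 of 14 samples the authors deposited whole-number counts, not normalized, over each gene's exons and introns, with the other 10 not analysed here. Build mm9, SICER and the tools Cuffdiff 2.1.1, Cufflinks 2.1.1 and TopHat 1.3.1 are listed, with no role, in the submitters' processing notes. The counting tool is not given in the sources used here. Libraries kept the strand, per the labels' protocols. In the deposited counts, though, all 22 genes with exons wholly inside opposite-strand exons were at 0, so that bases shared by features were credited to none, without regard to strand.

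A joint model of the 1107 regions and all gene exons was fitted with edgeR 4.0.16 under R 4.3.3, using TMM factors of the genes, filterByExpr, a group term and a term for the split by intron share, as quasi-likelihood F-tests with Benjamini-Hochberg adjustment over all tested features. Introns were fitted apart. Each fit has 1 residual degree of freedom, with a prior of 4.34 for exons and 5.55 for introns and an unlimited one for the interaction of intron and exon change. Each SE is the log2 fold change divided by the square root of F. In these fits p-values measure the spread left between the libraries once the split term is fitted, moderated by the spread over all features. The labels do not say whether libraries came from separate animals, so this spread may be technical. An exact permutation test of 2 against 2 cannot go below p = 0.33. Log2 differences between libraries added 0.5 counts. Rose and fell mean an adjusted p under 0.05. Promoters were aligned in Biopython 1.88. DESeq2 1.42.0 was an alternative.

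The chemokines and all lists were chosen with earlier results of these data known. Named are all 10 chemokines, the receptors that bind them, from every other list the 2 with the smallest p in each direction, neighbouring genes past the threshold, and up to 6 regions by p; others are said to be chosen later. Some genes that the rule takes are not reported here. Symbols matched 21615 of 21761 identifiers.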

Additional observations from a re-analysis of the deposited data

Results flagged for a closer look

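The region named for the end of Ccl2 had opposite signs in the pairs of libraries alike in intron share. It had 88 counts in sh1137 and 42 in sh830, against 11 in scrambled 1 and 40 in scrambled 2. The log2 difference was 3.07 for sh1137 against scrambled 1 and -0.01 for sh830 against scrambled 2, a gap of 3.08, though the second value is near 0. The controls differ too, by -1.85 for scrambled 1 against scrambled 2, so the gap is not one between the hairpins alone. Each hairpin has 1 library, and the gap was not tested.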

How the results depend on the processing

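The calls depend on the term for the split of libraries. With the group term alone, 0 chemokines fell or rose in exons, 0 fell in introns and 0 regions rose. With a term for the crossed split (sh1137 with scrambled 2) these counts were 0, 0, 0 and 2. With DESeq2 and the split term 2 chemokines rose in exons, Ccl6 and Ccl9. With DESeq2 size factors 1 rose in introns and 4 regions rose, and without the filter on low counts 1 rose in introns. Leaving out each library in turn, with the group term alone, gave 0 to 0 that fell and 0 to 1 that rose in exons, 0 to 1 that fell in introns, and 0 to 6 regions that rose. Over these fits the log2 fold change spanned 0 for exons of Ccl12 (-0.18 to 0.61), Ccl4 (-0.057 to 0.75) and Ccl9 (-0.15 to 1.13), introns of Ccl5 (-0.23 to 1.97) and Ccl9 (-0.23 to 0.85), and exons of Ackr2 (-1.30 to 1.37), Ccr1 (-0.66 to 0.074), Ptgs2 (-0.019 to 3.83), Atf3 (-1.21 to 0.52) and Fos (-2.04 to 0.025). By CPM with no length Ccl9 was at rank 1 in both groups, and Ccl2 at rank 3 in knockdown and rank 2 in scrambled libraries. Ccl2, Ccl7 and Ccl6 kept their sign in every exon fit run. The cause of these changes was not tested.

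No paired analysis was possible because the knockdown libraries carry no replicate numbers to match those of the scrambled libraries. The term for the split pairs libraries by their measured intron share, not by a label. Depth limits Ccl8 and Ccl22, with under 30 counts in each library.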
